A study of Mus musculus with 6 samples.

Results

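The 32 genes described here carry a cell through DNA replication and division. They were taken by symbol from a list of cell cycle and DNA replication genes, with no threshold on a measured value, and all 32 were found among the 34352 genes of the authors' deposited table of log2 values. Livers came from wild-type (WT) C57BL/6 mice that were 6 to 8 weeks old when housed. Mice of the cadmium group were gavaged daily with CdCl2 (cadmium chloride), 20 mg per kg body weight, those of the control group with 0 mg per kg, and both groups were sampled at day 90. Each group had 6 mice and is represented by 3 libraries. How mice map to libraries is not in the labels, and p-values here reflect only the variation among these 3 and 3 libraries, which may be technical. The RNA was the input fraction of an N6-methyladenosine (m6A) immunoprecipitation, which the labels describe as fragments left unbound by the antibody. A change in abundance and a change in the share of a transcript bound by the antibody therefore cannot be told apart.

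Cyclins bind and switch on cyclin-dependent kinases (CDKs), and successive pairs drive a cell from G1 into DNA synthesis and on into mitosis. Cyclin D with Cdk4 and cyclin E with Cdk2 release E2F transcription factors from the retinoblastoma protein, and E2F genes include the MCM helicase, PCNA and the enzymes of deoxynucleotide supply. Genes of the later phases are read mainly under B-MYB, FOXM1 and the DREAM complex, through CCAAT and CHR (cell cycle genes homology region) elements of their promoters. Most adult hepatocytes are quiescent and return to the cycle after loss or injury of liver tissue. In whole liver the cycling cells can also be Kupffer cells, infiltrating leukocytes, endothelial cells or stellate cells, and fewer cells of a type and less RNA per cell cannot be told apart.

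Top2a, the DNA topoisomerase that untangles sister chromosomes, and Bub1b, the spindle checkpoint kinase-like protein BubR1, rose in cadmium livers, 3.90-fold and 2.86-fold by the ratio of group means. No gene of the list passed the test as lower. The cyclin genes Ccnd1 and Ccne1 were lower in every cadmium library than in any control library, by ratios of control to cadmium means of 2.1 and 3.82, but did not pass. The 7 genes of the replicative helicase and clamp had log2 fold changes between -0.24 and 0.39, and none was called. The test was limma on the log2 values, two-sided, with Benjamini-Hochberg adjustment over 18284 genes and a threshold of 0.05. It called 2 of the 31 list genes that could be tested, or 6.45%, where it called 5.11% of all genes, so the share called is near the background. By direction the background was 2.7% higher and 2.41% lower. With the batch of the labels as a block, 1 of the 31 (Top2a) was called, against 3.62% of all genes.

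Promoter windows are shown for the 2 genes called, for Mki67 and Ccne1, which had large differences that did not pass, and for Mcm6 as a replication gene. Each window is the 250 bases before the RefSeq start on GRCm38.p6, written 5′ to 3′ on the gene's strand. Capitals mark matches, on either strand, to CCAAT, CHR (TTTGAA or TTTAAA), E2F (TTTCCCGC, TTTCGCGC, TTTGCCGC or TTTGGCGC) and the GC box (GGGCGG). The windows are chr11:99024190-99024439 for Top2a, chr7:135716380-135716629 for Mki67, chr2:118597961-118598210 for Bub1b, chr7:38107491-38107740 for Ccne1 and chr1:128359706-128359955 for Mcm6. That of Bub1b lies on the plus strand and the other 4 on the minus strand.
Top2a: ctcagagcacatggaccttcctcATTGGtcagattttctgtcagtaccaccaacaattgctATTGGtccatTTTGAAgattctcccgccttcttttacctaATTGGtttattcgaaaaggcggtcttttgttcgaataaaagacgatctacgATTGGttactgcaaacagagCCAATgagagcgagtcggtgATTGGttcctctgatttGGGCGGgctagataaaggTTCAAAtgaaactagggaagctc
Mki67: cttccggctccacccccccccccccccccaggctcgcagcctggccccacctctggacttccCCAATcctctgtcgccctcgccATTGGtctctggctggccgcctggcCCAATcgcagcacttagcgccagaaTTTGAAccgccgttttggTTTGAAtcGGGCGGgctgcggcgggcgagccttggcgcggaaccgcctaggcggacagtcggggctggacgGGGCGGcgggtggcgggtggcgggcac
Bub1b: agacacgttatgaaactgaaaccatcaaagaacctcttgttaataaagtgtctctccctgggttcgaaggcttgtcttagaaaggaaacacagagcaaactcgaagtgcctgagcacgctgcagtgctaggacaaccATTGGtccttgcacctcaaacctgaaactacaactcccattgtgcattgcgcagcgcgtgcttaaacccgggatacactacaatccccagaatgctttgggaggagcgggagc
Ccne1: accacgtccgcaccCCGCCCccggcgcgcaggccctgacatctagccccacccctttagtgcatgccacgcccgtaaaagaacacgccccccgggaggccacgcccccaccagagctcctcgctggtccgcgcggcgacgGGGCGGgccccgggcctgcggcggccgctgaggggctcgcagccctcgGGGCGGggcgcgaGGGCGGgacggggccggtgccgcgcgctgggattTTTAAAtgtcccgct
Mcm6: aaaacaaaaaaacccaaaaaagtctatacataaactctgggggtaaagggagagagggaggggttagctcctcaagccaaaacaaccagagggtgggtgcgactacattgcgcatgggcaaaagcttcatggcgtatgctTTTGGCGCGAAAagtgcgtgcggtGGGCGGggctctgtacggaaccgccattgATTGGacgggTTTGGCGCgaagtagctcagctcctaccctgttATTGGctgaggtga
The Top2a window held 6 CCAAT and 2 CHR matches and the Mki67 window 3 CCAAT and 2 CHR matches. The Bub1b window held 1 CCAAT match and none of the other motifs. In Ccne1 there were 4 GC boxes and 1 CHR match and no CCAAT, and in Mcm6 3 E2F matches beside 2 CCAAT and 1 GC box. Of the 3 E2F matches, those beginning 110 and 106 bases before the start overlap on opposite strands and form 1 stretch. A match is a description of the letters and not a site of binding.

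Windows were found for 26 of the 32 genes. Ccnd1, Ccna2, Ccne2, Mcm4, Aurkb and Foxm1 had no window. For E2f1 and Mcm7 the RefSeq start used for the map lies 466 and 539 bases inside the GENCODE gene. Their mapped windows therefore lie within the gene and do not cover the bases before the GENCODE start. The starts of Pcna, Ccnb1 and Tk1 lie 134, 84 and 78 bases inside, so part of each of those windows lies within the gene. All other starts used were within 60 bases of the GENCODE start. CCAAT occurred in 20 of the 26 (76.9%), against 37.5% of all 27025 genes with a window and 39.9% of the 11240 that were also tested for expression. CHR occurred in 13 (50%), against 28.1% and 21.5%. The E2F words occurred in 5 (19.2%), against 2.16% and 3.59%, and the GC box in 21 (80.8%), against 35.4% and 60.0%. No match to one motif overlapped a match to another in these windows. The map of matches shows where they lie before each start.

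**Figure D1:**
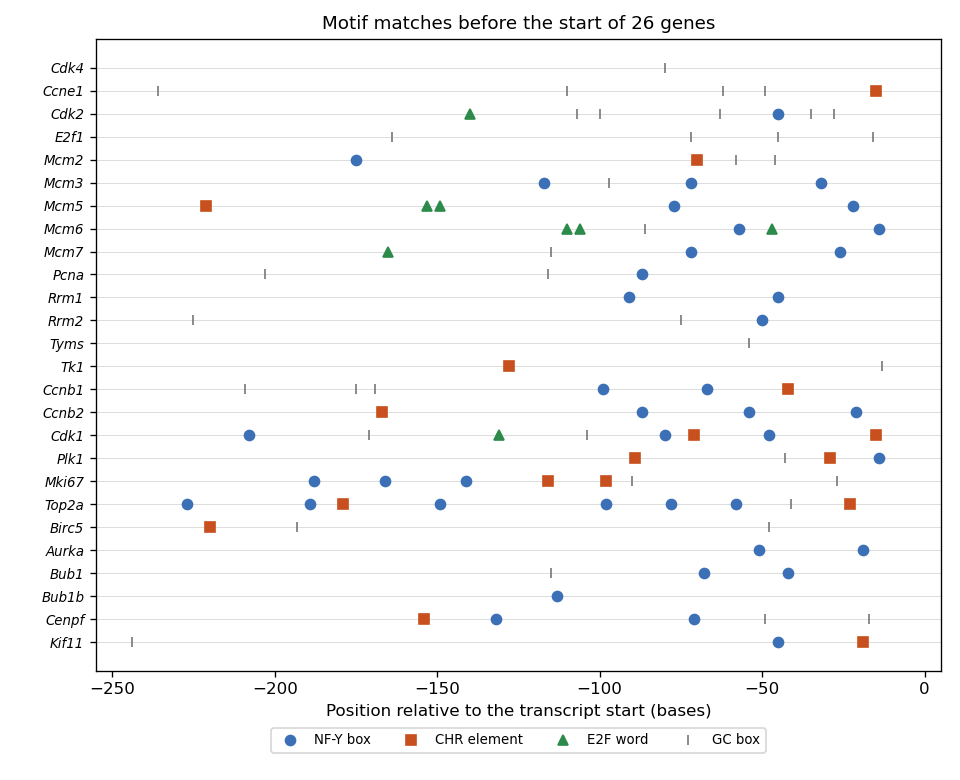
Matches to the 4 motifs in the promoter windows of the 26 cell cycle genes with a window (rows, grouped by role). The horizontal axis is distance in bases before the RefSeq start, which lies furthest inside the GENCODE gene for Mcm7, E2f1 and Pcna (539, 466 and 134 bases). Each symbol is 1 match on either strand (the NF-Y box is CCAAT). Matches to that box were present in 20 genes and E2F words in 5.

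The 6 libraries held between 42115960 and 68587128 recovered reads, and 1 read was worth 0.734 to 1.28 normalized reads, the unit used below (reads divided by the library's size factor). A count of 0 allows up to 3 reads, or 2.20 to 3.85 normalized reads depending on the library. Control replicate 1 and cadmium replicate 2 stood apart from the rest. Mitochondrial rRNA took 0.265% and 0.277% of their reads against 0.782% to 1.18% in the other 4, and Alb 2.87% and 2.91% against 4.89% to 5.06%. The labels call the mice male, but each library held 21647 to 41199 reads of Xist, which silences an X chromosome in females, and 0 or 1 read of each of the Y-linked genes Kdm5d and Uty. The metal-binding metallothionein genes Mt1 and Mt2 rose in cadmium by 4.68 and 6.51 on the log2 scale (limma, adjusted p of 0.0418 and 0.0134), with every cadmium library above every control library. Of the 6 fits that leave out 1 library, Mt1 was called in 2 and Mt2 in 3.

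Most of the genes were scarce in this tissue. Mean FPKM (fragments scaled to gene length and library total, a level that can be compared between genes) was below 1 for 26 of the 32 and ran from 0.0303 for Cenpf to 14.6 for Ccnd1. Their reads summed over all libraries ran from 61 to 27155. Genes with a mean of at least 10 normalized reads entered the test. Bub1, with a mean of 9.90, was just short of that and is given by its values. The mean was under 100 normalized reads for 16 of the 32. Among the 31 tested genes 20 had a positive and 11 a negative log2 fold change, with a median of 0.30. Over all genes tested 52.1% were positive and the median was 0.02. That median depended on level, with scarce genes leaning upward. In bands from 10, 30, 100, 300 and 1000 normalized reads it was 0.19, 0.17, 0.11, -0.02 and -0.08. List genes in these bands had medians of 0.69, 1.28, 0.15, -0.12 and -0.30 (7, 8, 9, 3 and 4 genes). An unadjusted limma p under 0.05 was reached by 9 of the 31 (29.0%), against 22% of all genes. These were Top2a, Bub1b, Ccna2, Foxm1, Mki67 and Aurkb with higher and Ccnd1, Ccne1 and Tk1 with lower values in cadmium.

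**Figure D2:**
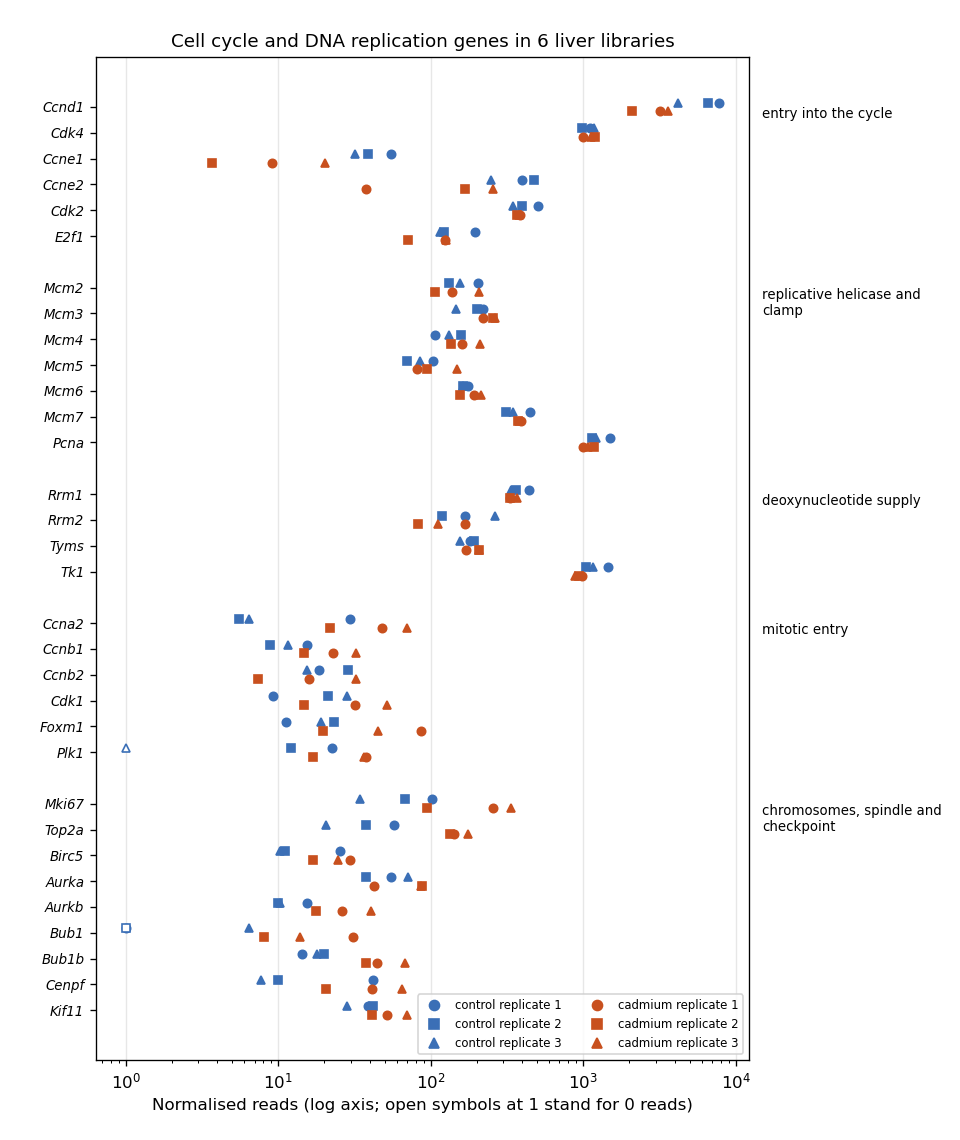
Normalized reads of each of the 32 genes in the 3 control and 3 cadmium libraries (log scale, 1 point per library, open symbols at the left edge for 0 reads), ordered by role. Top2a, Bub1b, Bub1 and Aurkb had every cadmium library above every control library, and Ccnd1, Ccne1 and Tk1 every cadmium library below.

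Among the genes of entry into the cycle, 5 of 6 had a negative log2 fold change, 2 had groups that did not overlap, and none was called. Both of the 2 had cadmium lower, a pattern of 13.3% of all genes tested, of which 52.1% had a positive log2 fold change. The pattern depended on level. It held for 23.0% of genes from 1000 normalized reads, the band of Ccnd1, and 5.63% from 10 to 30, the band of Ccne1. The 6 entry genes had a median log2 fold change of -0.74. Ccnd1 (chr7:144929931-144939925, GRCm38), which encodes cyclin D1, the cyclin through which mitogens start the cycle, was the most abundant gene of the list. Control replicates 1, 2 and 3 held 7803, 6629 and 4199 normalized reads of it, and the cadmium replicates, in the same order, 3172, 2094 and 3624. All 3 cadmium libraries were below the lowest control, though cadmium replicate 3 was close to control replicate 3. Group means were 6210.3 ± 1838 and 2963 ± 786 (SD, n = 3), a log2 fold change of -1.06 (SE 0.29) with a limma adjusted p of 0.0869. Leaving out 1 library gave adjusted p-values from 0.0276 to 0.214, the lowest without control replicate 3, the only such fit to call the gene.

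Ccne1 (chr7:38097984-38107534) encodes cyclin E1, the partner of Cdk2 at the start of DNA synthesis. It held 55.3, 38.9 and 32.1 normalized reads in controls and 9.16, 3.67 and 20.2 in cadmium, from 25 to 54 reads per control library and 5 to 26 per cadmium library. The groups did not overlap, and cadmium replicate 2 was the lowest. Means were 42.1 ± 11.9 and 11 ± 8.42 (SD, n = 3), a log2 fold change of -2.07 (SE 0.56). Its limma adjusted p was 0.0595, and leaving out 1 library gave 0.0565 to 0.148. It passed as lower after median centring (0.0471), with a pseudocount of 5 (0.0461) and with limma's voom scaled to library totals (0.0489). The second cyclin E gene, Ccne2, held 400.3, 477 and 249 normalized reads in controls and 37.8, 168 and 256 in cadmium. Here cadmium replicate 3 lay within the control range, and the log2 fold change of -1.61 (SE 0.80) had a limma adjusted p of 0.332. Without cadmium replicate 1 it was -0.80 (limma adjusted p 0.236).

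The authors' deposited table gives Ccnd1 an FDR of 1.09e-04 and Ccne1 an FDR of 0.0103, both lower in cadmium. The difference within a batch, in which 1 control and 1 cadmium library share a number in the labels, was -1.30, -1.66 and -0.21 on the log2 scale for Ccnd1 in batches 1 to 3. For Ccne1 it was -2.47, -3.09 and -0.64, and for Ccne2 -3.37, -1.50 and 0.04. All 3 genes differed least in batch 3.

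The kinases these cyclins bind had overlapping groups. Cdk4, the partner of cyclin D, held 1111, 980.5 and 1188 normalized reads in controls and 1006, 1194 and 1126 in cadmium, a log2 fold change of 0.02 (SE 0.12, limma adjusted p 0.946). Cdk2, the partner of cyclins E and A, had a log2 fold change of -0.12 (SE 0.16, limma adjusted p 0.711). E2f1, an activator of S-phase genes, held 195, 122 and 115 normalized reads in controls and 125, 71.2 and 126 in cadmium, with overlapping groups. Its log2 fold change was -0.43 (SE 0.29, limma adjusted p 0.435).

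Of the 7 genes of the replicative helicase and the sliding clamp none was called and none had groups that did not overlap. The log2 fold changes lay between -0.24 and 0.39, with a median of 0.15. Mcm2 to Mcm7 encode the 6 subunits of the ring that unwinds DNA at the fork. In Mcm3 the controls held 222, 202 and 146 normalized reads and the cadmium libraries 219.9, 258 and 263, the highest fold change of the 7 at 0.39 (SE 0.20, limma adjusted p 0.284). Mcm4 and Mcm5 followed at 0.35 (SE 0.23) and 0.30 (SE 0.28), Mcm6 at 0.15 (SE 0.19), Mcm7 at 0.06 (SE 0.16) and Mcm2 at -0.16 (SE 0.27). Mcm6, the gene with 3 E2F matches of which 2 overlap, held 176, 163 and 164 normalized reads in controls and 191, 156 and 214 in cadmium. Pcna, the clamp that holds DNA polymerase on its template, held 1507, 1149 and 1213 in controls and 1001, 1185 and 1071 in cadmium. The log2 fold change of Pcna was -0.24 (SE 0.13, limma adjusted p 0.330), and its groups overlapped through cadmium replicate 2, without which it was -0.31.

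Deoxynucleotide supply was represented by 4 genes, of which 3 had a negative log2 fold change and none was called. Tk1, thymidine kinase of the salvage pathway, held 1459.8, 1045 and 1158 normalized reads in controls and 987, 946 and 880.1 in cadmium. The groups did not overlap. Means of 1221 ± 214 and 938 ± 54.1 (SD, n = 3) gave a log2 fold change of -0.37 (SE 0.14, limma adjusted p 0.157). Tk1 shares 83 exonic bases with Afmid on the opposite strand, a gene at 17.9 FPKM, and whether reads were counted by strand is not given in the sources used here. Rrm1 and Rrm2, the subunits of ribonucleotide reductase, had log2 fold changes of -0.13 (SE 0.15) and -0.58 (SE 0.34), and Tyms, which makes thymidylate, of 0.15 (SE 0.18). Rrm2, the subunit made in S phase, held 169, 119 and 263 normalized reads in controls and 168, 82.9 and 111 in cadmium, with control replicate 3 well above the rest.

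The 3 entry, helicase and supply groups thus held 17 of the 32 genes and none of those called. Exons of 10 of the 32 genes share bases with another annotated gene: Ccnd1, Cdk4, Ccne2, Cdk2, Mcm7, Tk1, Ccna2, Foxm1, Plk1 and Top2a. For Cdk4 the partner is Tspan31, with 641 shared bases and 40.9 FPKM, so part of the Cdk4 reads may belong to Tspan31. Ccna2, at 0.113 FPKM, shares 510 bases with Exosc9 at 0.798 FPKM. Ccne2, at 1.13 FPKM, shares 609 bases with Ints8 at 1.31 FPKM. Part of the Ccna2 and Ccne2 reads may likewise belong to these partners, which lie on the opposite strand. For Top2a the partner is a small nucleolar RNA gene with 122 shared bases and 0.00425 FPKM.

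Of the 6 genes of mitotic entry 5 had a positive log2 fold change, with a median of 1.07, and none was called. Ccna2 encodes cyclin A2, which acts in S phase and G2. It held 29.7, 5.55 and 6.41 normalized reads in controls and 48.1, 22.0 and 69.9 in cadmium, and only control replicate 1 reached the cadmium range. Its log2 fold change was 1.92 (SE 0.66) with a limma adjusted p of 0.125. Leaving out 1 library gave limma adjusted p-values from 0.0219 to 0.363. The lowest came without control replicate 1, the highest control, and the highest without cadmium replicate 3. Foxm1, the transcription factor of late cycle genes, held 11.3, 23.3 and 19.2 normalized reads in controls and 87.0, 19.8 and 45.1 in cadmium. Cadmium replicate 2 lay within the control range there, and the log2 fold change was 1.27 (SE 0.53, limma adjusted p 0.191). It was 1.81 without cadmium replicate 2 (limma adjusted p 0.0665) and 0.77 without cadmium replicate 1 (0.515).

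Cyclins B1 and B2 and the kinase Cdk1 form the complex that starts mitosis. Ccnb1 held 15.4, 8.88 and 11.5 normalized reads in controls and 22.9, 14.7 and 32.6 in cadmium, and Cdk1 held 9.21, 21.1 and 28.2 against 32.1, 14.7 and 52.0. Both had overlapping groups through cadmium replicate 2, with log2 fold changes of 0.88 (SE 0.47) and 0.69 (SE 0.55). Without that library these were 1.16 for each gene. For Cdk1 the value was 0.25 without control replicate 1 and 0.28 without cadmium replicate 3, and neither gene passed in any fit that leaves out a library. Ccnb2 was the exception of the 6 at -0.33 (SE 0.55), from 18.4, 28.9 and 15.4 normalized reads in controls to 16.0, 7.34 and 32.6 in cadmium, and its sign turned without cadmium replicate 2 (0.18). Plk1, the polo-like kinase of mitosis, held 22.5, 12.2 and 0 normalized reads in controls and 37.8, 16.9 and 36.5 in cadmium. Its log2 fold change of 2.13 (SE 1.13, limma adjusted p 0.327) was 0.75 without control replicate 3, the library with no read.

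The 9 genes of chromosomes, spindle and checkpoint gave both calls. All 8 that were tested had a positive log2 fold change, with a median of 1.21, and 2 were called. Of all genes tested 52.1% were positive and 2.7% were called higher. Top2a (chr11:98992943-99024189), the topoisomerase II of dividing cells, held 57.3, 37.8 and 20.5 normalized reads in controls and 142, 134 and 176 in cadmium, from 16 to 56 and from 124 to 226 reads per library. The lowest cadmium library was above 2 times the highest control. Means were 38.5 ± 18.4 and 150.4 ± 22.2 (SD, n = 3), a log2 fold change of 2.04 (SE 0.35) with a limma adjusted p of 0.0118. The call was lost in 1 of the 6 fits that leave out a library, with an adjusted p of 0.0697 without cadmium replicate 3. The difference was 1.29, 1.80 and 3.04 in batches 1 to 3 on the log2 scale, and with the batch as a block the limma adjusted p was 0.0283.

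Bub1b (chr2:118598211-118641591) belongs to the spindle checkpoint, which holds anaphase back until every chromosome is attached. It held 14.3, 20.0 and 18.0 normalized reads in controls and 44.7, 37.4 and 67.6 in cadmium, without overlap. Means were 17.4 ± 2.86 and 49.9 ± 15.7 (SD, n = 3), a log2 fold change of 1.43 (SE 0.36) with a limma adjusted p of 0.0470. This call sat at the threshold. It was lost with the batch as a block (limma adjusted p 0.0863) and in all 6 fits that leave out a library (0.0622 to 0.230). Bub1, the kinase of the same checkpoint, held 0, 0 and 5 reads in controls and 27, 11 and 18 in cadmium, or 0, 0 and 6.41 against 30.9, 8.07 and 14 normalized reads. No cadmium library was as low as the highest control, with cadmium replicate 2 close to it.

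Mki67 (chr7:135689784-135716361), the gene of the proliferation marker Ki-67, held 101, 67.7 and 34.6 normalized reads in controls and 257, 95.4 and 339 in cadmium. Cadmium replicates 1 and 3 were far above the controls and replicate 2 lay just under control replicate 1. Means were 67.9 ± 33.4 and 230.2 ± 124 (SD, n = 3), a log2 fold change of 1.69 (SE 0.57) with a limma adjusted p of 0.148. Leaving out 1 library gave limma adjusted p-values from 0.0258 to 0.329. The lowest came without cadmium replicate 2, the lowest cadmium library, and the highest without cadmium replicate 1. Without both libraries that stood apart the limma adjusted p was 0.00248. Leaving out both also brought Ccna2 to 0.00787 and Cenpf to 0.0202, so that 4 list genes were called in that fit: these 3 and Top2a. Over all genes that fit called 586 higher and 645 lower. For each of the 4 genes the libraries left out were the highest control and the lowest cadmium library, so the difference was bound to widen.

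Aurkb, the kinase of the chromosomal passenger complex, held 15.4, 9.99 and 10.3 normalized reads in controls and 26.3, 17.6 and 40.4 in cadmium. Its groups did not overlap, but its log2 fold change of 1.13 (SE 0.45) had a limma adjusted p of 0.179. Birc5, the survivin subunit of the same complex, had a log2 fold change of 0.66 (SE 0.47), and Aurka, the kinase of the spindle poles, of 0.37 (SE 0.36). Cenpf, a kinetochore protein, held 42.0, 9.99 and 7.70 normalized reads in controls and 41.2, 20.5 and 65.2 in cadmium, with control replicate 1 as high as cadmium replicate 1. Its log2 fold change was 1.29 (SE 0.65, limma adjusted p 0.292). Leaving out 1 library gave 0.85 to 2.00 (limma adjusted p 0.0550 to 0.592), the highest fold change without control replicate 1. Kif11, the motor that separates spindle poles, had a log2 fold change of 0.55 (SE 0.32, limma adjusted p 0.355).

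**Figure D3:**
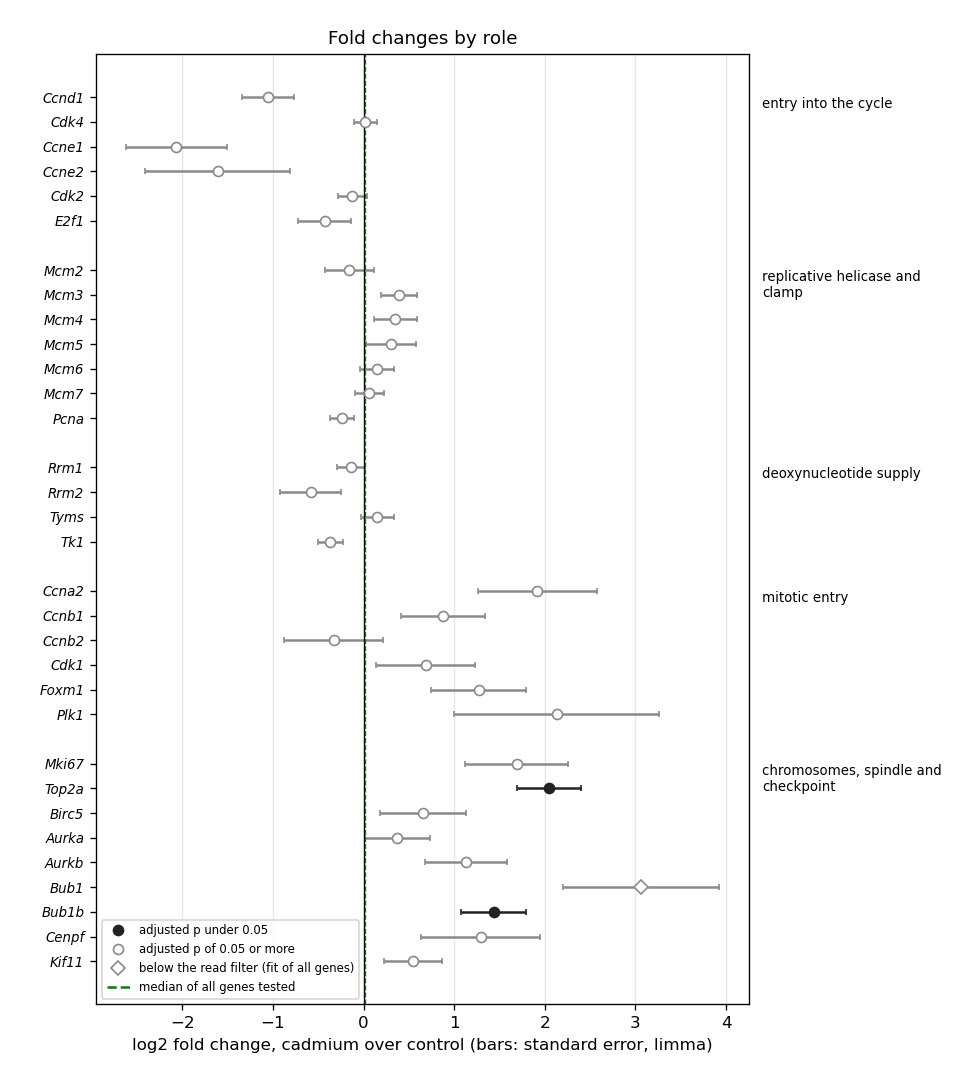
Log2 fold change, cadmium over control, of the 31 tested genes with its standard error (bars), ordered by role, and of Bub1 from a fit of all genes (diamond); filled symbols are the genes called by limma at an adjusted p under 0.05. The 2 called genes are Top2a at 2.04 and Bub1b at 1.43, and the 7 helicase and clamp genes lie between -0.24 and 0.39.

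Counted without a test, groups that did not overlap were found for 3 tested genes with cadmium higher (Top2a, Aurkb and Bub1b, 9.68% of 31) and for 3 with cadmium lower (Ccnd1, Ccne1 and Tk1, 9.68%). Among all genes tested these shares were 14.5% and 13.3%, not matched for level. Within all 3 batches the difference was positive for 8 of the 31 (25.8%) and negative for 4 (12.9%), where it was positive for 23.0% and negative for 20.6% of all genes tested. Authors' calls were more numerous: the authors' deposited table has an FDR under 0.05 for 5 of the 32 genes (15.6%) and for 6.87% of its 34352 genes (3.72% higher and 3.15% lower). These are Top2a (1.04e-07), Bub1b (0.00716) and Bub1 (0.0412) as higher and Ccnd1 and Ccne1 as lower.

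The libraries of a group did not move evenly. Taking each gene's log2 value relative to the control mean, the median of the mitotic entry genes was 1.51, 0.25 and 1.45 in cadmium replicates 1 to 3 and 0.12, 0.33 and -0.19 in controls. For chromosomes, spindle and checkpoint it was 1.22, 0.58 and 1.81 in cadmium and 0.52, -0.06 and -0.39 in controls. Cadmium replicate 2 was the lowest cadmium library and control replicate 1 the highest control for the second of these groups. The entry genes had medians of -0.54, -1.04 and -0.33 in cadmium and 0.34, -0.06 and -0.31 in controls, so that cadmium replicate 3 lay near control replicate 3. The median of the helicase and clamp genes stayed between -0.16 and 0.36 in all 6 libraries, while single genes went beyond that range.

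**Figure D4:**
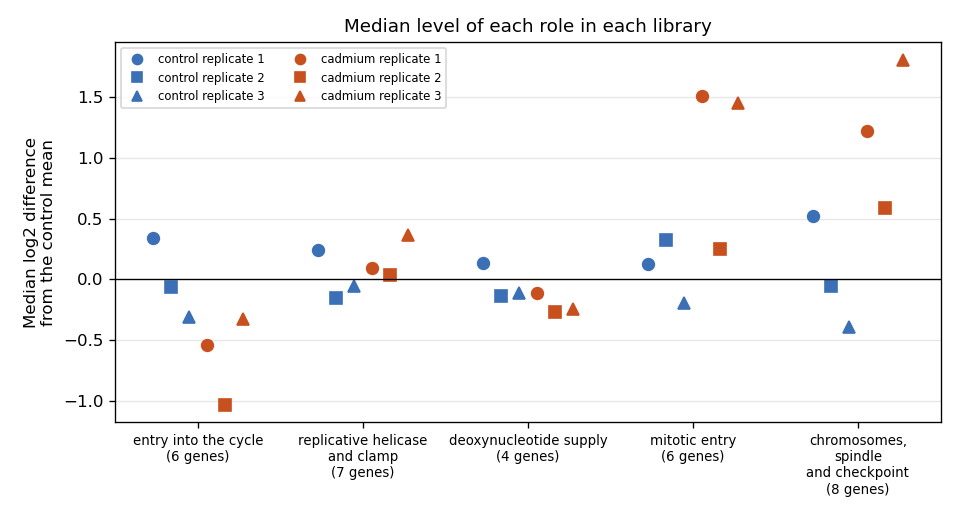
Median log2 deviation from the control mean of the genes of each role in each of the 6 libraries (blue for control, orange for cadmium, 1 symbol shape per replicate number). Cadmium replicates 1 and 3 reach 1.51 and 1.45 for mitotic entry, where cadmium replicate 2 is at 0.25.

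The rest of the cell cycle machinery was followed in 7 lists with 126 genes, of which 120 were tested, 3 were called higher and 2 lower. That is 4.17%, under the 5.11% of all genes. Kinetochore, spindle and cytokinesis genes had the highest median log2 fold change, 0.83, with 1 called higher and 1 lower. Positive values made up 19 of its 24, or 79.2% against 52.1% of all genes tested. Of the 24, 8 had groups that did not overlap with cadmium higher, a pattern of 14.5% of all genes. These shares of all genes were not matched for level. Kif23, the motor of the midzone in cytokinesis, held 14.3, 12.2 and 11.5 normalized reads in controls and 43.5, 31.5 and 72.2 in cadmium. It rose by 1.79 on the log2 scale (SE 0.40, limma adjusted p 0.0313, or 0.0628 with the batch as a block), and 4 of the 6 fits that leave out a library lost the call (up to 0.186), those without control replicates 2 or 3 or cadmium replicates 1 or 3. Spc24, a subunit of the NDC80 kinetochore complex, held 526, 534 and 569 in controls and 345, 282 and 243 in cadmium. It fell by 0.92 on the log2 scale (SE 0.16, limma adjusted p 0.0116) where 19 genes of its list were positive, and the call was lost without cadmium replicate 3 (0.0661).

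Among inhibitors, checkpoint kinases and phosphatases 1 of 14 was called higher and 1 lower, against 2.7% and 2.41% of all genes tested. Cdkn1a encodes p21, an inhibitor of CDKs that p53 induces. It held 37.9, 42.2 and 61.6 normalized reads in controls and 123, 97.6 and 130.5 in cadmium, and rose by 1.31 on the log2 scale (SE 0.27, limma adjusted p 0.0244). That call was lost without control replicate 2 (0.0559), cadmium replicate 1 (0.0919) or cadmium replicate 3 (0.133). Wee1, the kinase that holds Cdk1 inactive and a gene of circadian output in liver, held 1284, 1606 and 1122 in controls and 179.8, 255 and 186 in cadmium. It fell by 2.69 on the log2 scale (SE 0.18, limma adjusted p 1.28e-04) and was called in all 6 fits that leave out a library.

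The list of other cyclins and CDKs had 1 call of 11, where 5.11% of all genes tested were called. Ccng2, an atypical cyclin that is high in quiescent cells, held 413, 254 and 251 normalized reads in controls and 753, 535 and 627 in cadmium. It rose by 1.08 on the log2 scale (SE 0.21, limma adjusted p 0.0201), and 4 of 6 fits that leave out a library lost the call (up to 0.0905), those without control replicates 2 or 3 or cadmium replicates 1 or 3. Origin licensing and firing (16 tested, median -0.05), replication fork enzymes (24, median 0.14), ubiquitin ligases of cycle proteins (13, median 0.05) and RB, E2F and DREAM factors (18, median 0.00) had no gene called by limma. In these lists 1, 2, 2 and 4 genes had an unadjusted p under 0.05, a result of 22% of all genes tested.

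**Figure D5:**
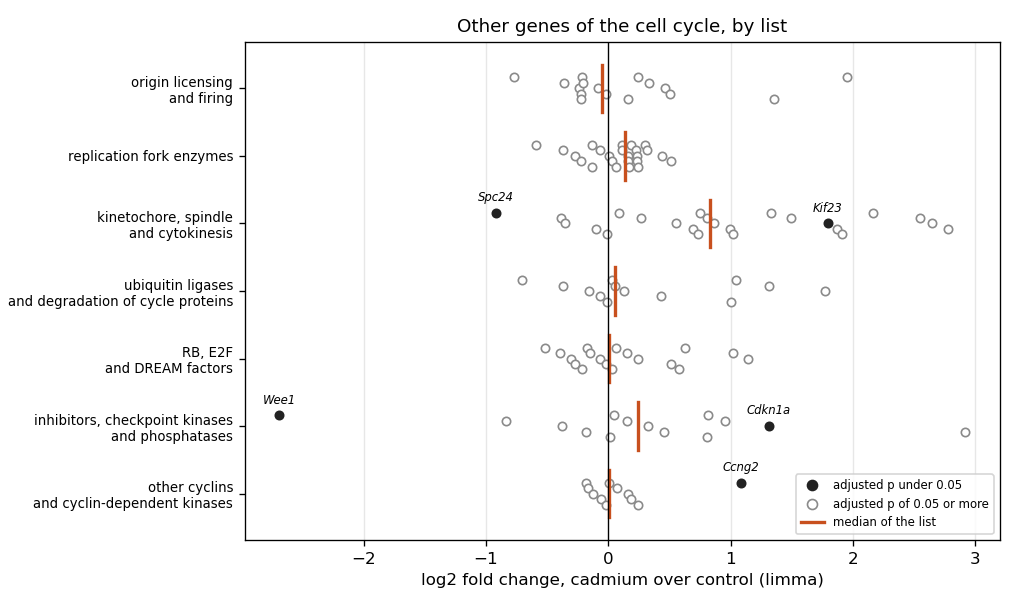
Log2 fold change of every tested gene (points) in the 7 other cell cycle lists, filled where called, with the median of each list as a bar. The kinetochore, spindle and cytokinesis list has a median of 0.83 and the licensing list of -0.05.

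Markers of liver cell types were measured beside these genes. Of all genes tested 2.7% were called higher and 2.41% lower, and 22% had an unadjusted p under 0.05. These shares were not matched for level. Hepatocyte markers had 0 of 9 called by limma, with 3 at an unadjusted p under 0.05, and a summed level of 15895 to 23911 FPKM in controls and 16558 to 25171 in cadmium. Of 11 macrophage and Kupffer cell markers 3 were called higher (Adgre1, Cd68 and Lyz2) and 1 lower (Timd4), with sums of 47.4 to 82.5 and 100.1 to 114.8 FPKM. Monocyte and neutrophil markers had 1 of 4 tested called higher (Ccr2), with sums over 6 markers of 0.600 to 1.06 and 2.19 to 2.72 FPKM. Stellate cell and fibroblast markers had 3 of 7 called higher (Lrat, Col1a1 and Col3a1), with sums of 12.6 to 20.0 and 30.02 to 33.6 FPKM. Timd4, Col1a1 and Col3a1 were called in all 6 fits that leave out a library, and Lyz2 and Ccr2 in all but the fit without cadmium replicate 3 (0.0654 and 0.0732). Adgre1 and Lrat were called only without control replicate 2 (elsewhere up to 0.154 and 0.145), and Cd68 only without control replicate 2 or 3 (elsewhere up to 0.134). With the batch as a block Cd68 (0.0568) and Lrat (0.0691) lost their calls.

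None was called by limma among the other 6 lists. There 4 of 8 endothelial and 1 of 6 tested T cell markers had an unadjusted p under 0.05, against 22% of all genes tested. Sums, which include markers too low to be tested, were 27.9 to 40.3 FPKM in controls and 37.8 to 51.4 in cadmium for 8 endothelial markers. For 7 T cell markers (6 tested) they were 0.565 to 0.931 and 0.723 to 1.17. For 5 natural killer cell markers (3 tested) they were 0.283 to 0.762 and 0.617 to 1.01. The sums were 1.70 to 4.13 and 4.08 to 6.86 for 7 B cell and plasma cell markers (6 tested). They were 6.23 to 9.96 and 7.56 to 25.7 for 6 cholangiocyte markers, and 129.5 to 447.6 and 177.9 to 569.1 for 7 erythroid markers (6 tested). No marker was at 0 in all libraries. The part of these cell types in the values of Top2a, Bub1b and the other mitotic genes was not tested.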

How the data were processed

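RNA-seq of the input fraction was analysed for 3 control and 3 cadmium liver libraries. The authors deposited log2 values for 34352 genes with their own log2 fold changes, p-values and FDR, and FPKM for 55335 genes. Programs named, without a role, per the submitters' processing notes are STAR 2.7.1a, cutadapt 1.1.8, MACS2 2.1.1, SAMtools 1.3.1 and DESeq2, and the genome is mm10. Which counter, strand setting, annotation and test the authors used is not given in the sources used here. Undoing the deposited log2 values and subtracting 1 gave whole multiples of 1 step per library for 100% of values (within 0.05 of a read), so reads divided by a size factor were recovered. FPKM per recovered read varied by under 10% for 100% of 11962 genes with 50 reads in every library.

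limma 3.58.1 (R 4.3.3, trend and robust moderation, two-sided, Benjamini-Hochberg, threshold 0.05) was fitted to the deposited log2 values of the 18284 genes with a mean of at least 10 normalized reads, and was tested on simulated data. Fold changes are differences of mean log2(value + 1), and the added 1 shrinks the change of low genes. They can still exceed the log2 of the ratio of group means. Plk1, with 1 library at 0, had a log2 fold change of 2.13 and a ratio of means of 2.62. The replicate number is the batch in the labels, so each batch pairs 1 control and 1 cadmium library. Deviations from the group means correlated at -0.03 in each of the 3 same-numbered pairs and at -0.04 to 0.07 in the others. Alternatives were the batch as a block, other scalings, tables, pseudocounts, filters and moderation, voom on the recovered reads, and each library left out. Genes named are the 32, up to 4 called genes per direction in each of 7 cell cycle lists, called markers in 10 cell lists, and Mt1 and Mt2. The list of 32 was put together by function, but it and the other lists were chosen with earlier results of these data known. Gene coordinates and overlaps are from GENCODE M21 on GRCm38 (mm10), which held 34276 of the 34352 identifiers, and promoter sequences from RefSeq on GRCm38.p6.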

Additional observations from a re-analysis of the deposited data

How the results depend on the processing

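Depth limits Bub1 and Plk1, where libraries with 0 reads allow up to 3. Over all genes, 494 were called higher and 441 lower. The block for the replicate number gave 329 and 333, median centring 402 and 856, log2(FPKM + 1) 779 and 180, log2(FPKM + 0.1) 833 and 174, voom with library totals 1398 and 217, and limma without trend or robust moderation 20 and 17. Leaving out 1 library, or both control replicate 1 and cadmium replicate 2, gave 83 to 605 higher and 115 to 645 lower, the fewest without cadmium replicate 3. Of the 32 genes, 2 were called higher. The count was 1 under the block, quantile normalization, median centring, voom with size factors, no filter and a mean of at least 50, and 0 under log2(FPKM + 1), which only 6 of the genes enter, and without trend or robust moderation. It was 0 to 2 with 1 library left out and 4 without control replicate 1 and cadmium replicate 2. The count called lower, 0, was 1 under median centring, voom with library totals and a pseudocount of 5 (Ccne1 in each), and 0 to 1 with 1 library left out (Ccnd1 without control replicate 3). Their median log2 fold change less that of all genes was 0.28, -0.19 under log2(FPKM + 1), 0.032 with a mean of at least 50, 0.13 with quantile normalization, 0.12 under log2(FPKM + 0.1), and 0.09 to 0.35 with 1 library left out. The median of all genes, 0.02, was 0.17 in log2(FPKM + 0.1), a shift that fold changes in FPKM share. Signs turned only in genes that were not called. Median centring gave Cdk4 -0.066 and Mcm7 -0.024. Under log2(FPKM + 0.1) and voom with library totals Cdk2 was 0.052 and 0.046, Mcm2 0.037 and 0.019, and Rrm1 0.040 and 0.045. With 1 or both of those libraries left out, log2 fold changes ran from -0.055 to 0.090 for Cdk4, -0.25 to 0.039 for Cdk2, -0.57 to 0.077 for E2f1, -0.42 to 0.24 for Mcm2, -0.045 to 0.22 for Mcm7, -0.22 to 0.0074 for Rrm1 and -0.83 to 0.18 for Ccnb2. The cause of these changes was not tested. Under the block, Bub1b and Kif23 were the only named cell cycle genes to lose their call.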

Other observations

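Other division genes outside the 32 showed single-library or on-off values, and the genes in this paragraph were chosen after their values were seen. Hmmr, which encodes a spindle-binding protein of dividing cells, had 0 reads in all 3 control libraries and 14, 9 and 23 reads in cadmium replicates 1 to 3. Its mean was below the limit of the test, so it has no adjusted p. Cdkn2b, which encodes the CDK4 and CDK6 inhibitor p15, held 4531 normalized reads in cadmium replicate 1 and 13.2 in each of the other 2 cadmium libraries, against 23.5, 6.66 and 10.3 in controls. The limma log2 fold change of 2.92 (SE 2.73) had an adjusted p of 0.610.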
